A study of Mus musculus with 16 samples.

Results

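Kv channel interacting proteins (KChIPs) are encoded in the mouse by 4 genes, Kcnip1, Kcnip2, Kcnip3 and Kcnip4, which were chosen by name with their gene reads and isoform shares over the regions and genotypes of these same samples in view, so their values are given as a description without a test. They are 4 of 21627 genes with at least 1 read, and 466 of the 815498 isoforms listed belonged to them and had a read. RNA molecules were read from end to end by PacBio Iso-seq in the cortex and the striatum of male mice aged 3 months. R6/2 mice (B6CBA-Tg(HDexon1)62Gpb/3J) carry a transgene with exon 1 of mutant human huntingtin (HTT) beside their own huntingtin genes, and non-transgenic (NT) mice of the same age were the controls. The 16 samples form 4 groups of 4, cortex NT, cortex R6/2, striatum NT and striatum R6/2, and the comparisons ask how R6/2 differed from NT in each region and how the regions differed. R6/2 is a fragment model, and the human transgene itself was not analysed here.

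KChIPs are small calcium-binding proteins of the EF-hand family. Their conserved core binds the intracellular end of Kv4 potassium channels, the pore-forming subunits of the fast A-type current in neuron dendrites, and raises the number of channels at the surface and changes how they inactivate. Their N-terminal parts differ between the 4 genes and between isoforms of a gene, through alternative first exons and short cassette exons. The product of Kcnip3 is also known as DREAM, a calcium-regulated transcriptional repressor and as calsenilin.

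In the mouse genome build mm10 (GENCODE M21), all 4 genes lie on the minus strand. Kcnip1 is at chr11:33629339-33993152, Kcnip2 at chr19:45791839-45816061, Kcnip3 at chr2:127456498-127522094 and Kcnip4 at chr5:48389502-49524907. Their lengths range from 24223 bp (Kcnip2) to 1135406 bp (Kcnip4). The sequences of the alternative exons that separate the main isoforms are given first, because the isoform counts of Kcnip2, Kcnip1 and Kcnip3 turn on them. Each is the sense strand of the GENCODE M21 transcript, with 20 nt of the joined neighbouring exons in lower case and the alternative stretch in capitals. All are coding in the transcript they come from. In the isoform with the downstream acceptor of Kcnip3 the 4 capitals are missing.
Kcnip2 96-nt exon: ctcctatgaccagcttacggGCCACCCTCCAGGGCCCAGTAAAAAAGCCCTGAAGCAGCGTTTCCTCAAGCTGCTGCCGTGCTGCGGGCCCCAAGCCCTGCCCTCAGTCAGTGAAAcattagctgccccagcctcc
Kcnip2 54-nt exon: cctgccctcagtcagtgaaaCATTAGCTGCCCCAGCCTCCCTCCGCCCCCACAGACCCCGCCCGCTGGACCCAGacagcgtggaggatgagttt
Kcnip1 33-nt exon: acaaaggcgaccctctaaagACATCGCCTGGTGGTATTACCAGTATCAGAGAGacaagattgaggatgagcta
Kcnip3 upstream acceptor: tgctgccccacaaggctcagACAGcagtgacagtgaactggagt
Kcnip3 downstream acceptor: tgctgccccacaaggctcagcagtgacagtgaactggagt

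The 96-nt exon of Kcnip2 is at chr19:45797091-45797186 and its 54-nt exon at chr19:45796279-45796332. The transcript ENSMUST00000162528 holds both exons, ENSMUST00000079431 lacks the 54-nt exon and ENSMUST00000161886 lacks both, with coding lengths of 810, 756 and 660 nt. All 3 are annotated with the same start codon in exon 1. The 33-nt exon of Kcnip1 is at chr11:33651540-33651572, present in ENSMUST00000109340 (coding length 681 nt) and absent from ENSMUST00000065970 (648 nt). The 4 extra bases of Kcnip3 are at chr2:127465975-127465978, and ENSMUST00000103215 has them (coding length 768 nt) while ENSMUST00000028850 does not (852 nt), and the annotation gives the pair different start codons within the same first exon.

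Levels are given in CPM, a gene's reads per 1000000 reads of the library, with the library size scaled by trimmed means (TMM). Each read was counted as 1 and not divided by length, and PCR copies of a molecule cannot be told from other molecules. The cortex libraries held 252885 to 808814 reads and the striatum libraries 317050 to 1496196. For 4 striatum samples (the NT samples 1 and 2 and the R6/2 samples 2 and 3), 2 count sets were deposited and summed here, and their mean isoform length was 2125 to 2197 nt against 1589 to 1840 nt in the other 4 striatum samples. Markers of striatal projection neurons summed to 10097 to 13855 CPM in striatum NT and to 375 to 467 CPM in cortex NT, and those of cortical excitatory neurons to 4.87 to 47.9 and 141 to 155 CPM. Choroid plexus markers reached 9178 CPM in striatum NT 3, against a median of 182 CPM in striatum NT. A sample is called by its group and label number. The paper took these male samples, 4 per condition, from its short-read set, which it describes as biological replicates. The labels name no mouse and do not say whether cortex and striatum samples came from the same mice. The p-values and errors measure the spread between these samples.

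Kcnip2 encodes KChIP2, the KChIP best known from the heart's transient outward current and also made in the forebrain. In striatum NT, Kcnip2 was read at 218, 373, 142 and 97.4 CPM in samples 1 to 4 (173, 480, 90 and 20 reads). In striatum R6/2 it was read at 61.1, 73.6, 87.4 and 30.6 CPM (42, 71, 86 and 13 reads). The genotypes did not overlap, and the lowest NT sample was above the highest R6/2 sample. The means were 208 ± 121 CPM in NT and 63.2 ± 24.2 CPM in R6/2 (SD, n = 4), a ratio of 3.29, and the edgeR fit gave a log2 fold change of −1.70 ± 0.24 (SE). Samples with 2 count sets were higher than samples with 1 within both genotypes, so the comparison was repeated within each kind. The NT mean was 2.61 times the R6/2 mean among samples with 1 count set and 3.67 times among those with 2, with 2 samples on each side.

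In the cortex, Kcnip2 was read at 32.5, 38.8, 9.75 and 42.6 CPM in NT and at 9.16, 10.2, 27.7 and 13.8 CPM in R6/2. The genotypes overlapped, because cortex NT 3 (2 reads, the shallowest library) lay among the R6/2 samples. The log2 fold change was −1.05 ± 0.40 (SE), and it ranged from −1.59 to −0.87 when each sample was left out in turn. Kcnip2 was also the KChIP gene that separated the regions in both genotypes. Its striatum to cortex log2 fold change in the fit over all 16 samples was 2.68 ± 0.45 (SE) in NT and 2.01 ± 0.49 in R6/2. The 4 groups ran in the order striatum NT, striatum R6/2, cortex NT, cortex R6/2, and striatum R6/2 and cortex NT overlapped, as did the 2 cortex groups.

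Kcnip3 (DREAM, calsenilin) was at like levels in the NT samples of both regions and lower in R6/2 in both. In cortex NT it was read at 43.3, 62.4, 48.8 and 54.2 CPM, and in cortex R6/2 at 27.5, 32.6, 26.3 and 32.3 CPM. In striatum NT it was read at 85.7, 79.3, 58.3 and 43.8 CPM, and in striatum R6/2 at 16, 40.4, 40.7 and 21.2 CPM. The genotypes did not overlap in either region. Incomplete isoforms took 15 of 83 reads in cortex NT and 1 of 64 in cortex R6/2. Without them the cortex genotypes overlapped, because cortex NT 3 (then 6 reads) lay among the R6/2 samples. The log2 fold change was −0.83 ± 0.25 (SE) in cortex and −1.21 ± 0.21 in striatum. In the cortex it was −0.56 both without incomplete isoforms and with the genomic class added. The regions overlapped in both genotypes, with log2 fold changes of 0.40 ± 0.28 (SE) in NT and 0.06 ± 0.30 in R6/2. Against the cortex, the NT difference was 0.02 with striatum samples of 1 count set alone, and the R6/2 difference was then −0.68.

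Kcnip4, whose product slows Kv4 inactivation through isoforms with a distinct N-terminus, was the KChIP gene with a higher level in the cortex. It was read at 43.3, 116, 68.3 and 90.9 CPM in cortex NT and at 43.9, 59.1, 67.8 and 64.5 CPM in cortex R6/2. In the striatum the values were 50.4, 33.4, 20.5 and 39.0 CPM in NT and 20.4, 37.3, 37.6 and 18.9 CPM in R6/2. The genotypes overlapped in both regions, and the log2 fold changes were −0.47 ± 0.26 (SE) in cortex and −0.23 ± 0.25 in striatum. The latter was 0.20 with the first count set alone. The striatum was lower than the cortex by a log2 fold change of −1.18 ± 0.33 (SE) in NT, where the regions overlapped, and of −0.99 ± 0.33 in R6/2, where they did not.

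Kcnip1, which is known from interneurons and other forebrain neurons, had the fewest reads, between 0 and 33 per sample, and did not pass the filter on low counts in either region. In striatum NT it was at 32.8, 25.7, 9.45 and 9.74 CPM, and in striatum R6/2 at 7.27, 13.5, 11.2 and 2.36 CPM. In the cortex it was at 10.8, 10.8, 14.6 and 13.5 CPM in NT and at 11, 0, 9.69 and 9.22 CPM in R6/2. The genotypes overlapped in both regions. The unfiltered fits gave log2 fold changes of −1.08 ± 0.39 (SE) in striatum and −0.59 ± 0.55 in cortex. The 2 striatum NT samples above 20 CPM were those with 2 count sets.

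**Figure D1:**
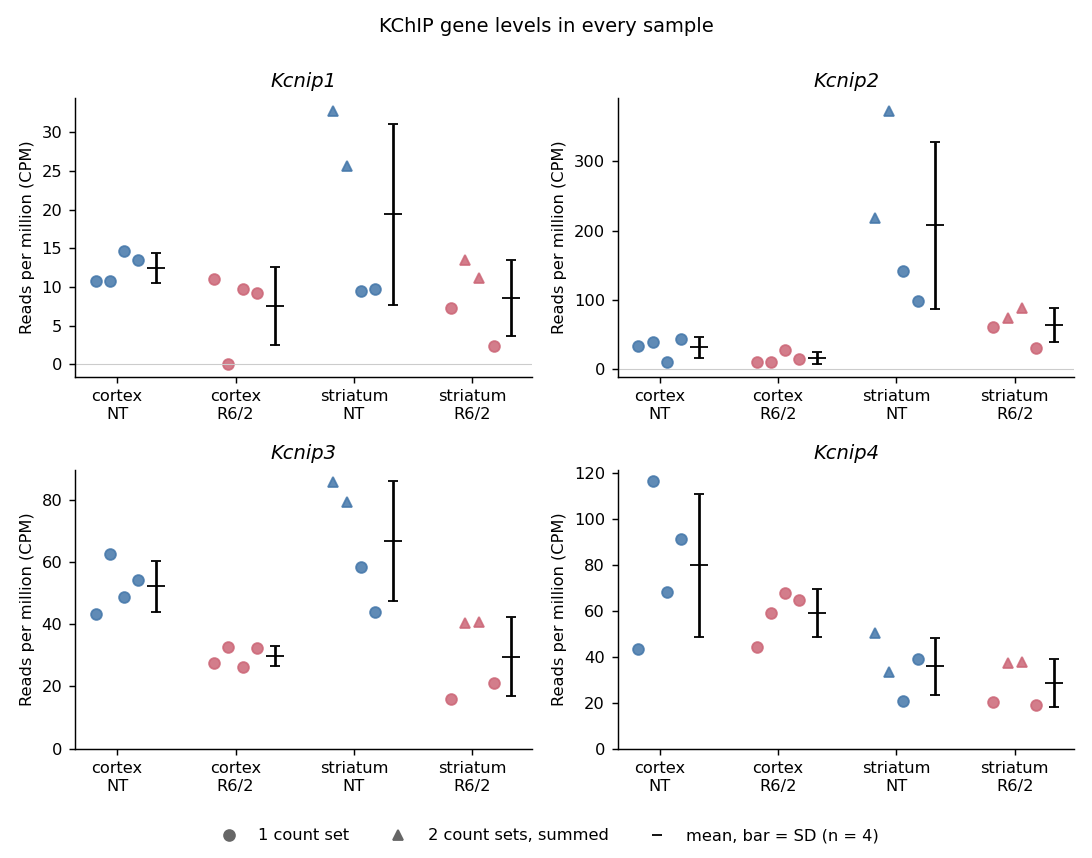
Level in CPM (linear axis) of each KChIP gene in the 16 samples, by region and genotype, with the mean and SD of 4 samples beside each group; circles are samples with 1 count set and triangles those with 2 summed. Kcnip2 in striatum NT lies between 97.4 and 373 CPM, above all striatum R6/2 samples. Kcnip3 does not overlap between genotypes in either region, in cortex only with incomplete isoforms counted.

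The genotypes did not overlap for 1 of the 4 genes in cortex (Kcnip3) and for 2 of the 4 in striatum (Kcnip2 and Kcnip3). For Kcnip3 in cortex this held only with incomplete isoforms counted. Of all genes tested, 10.0% (615 of 6121) did not overlap in cortex and 6.10% (467 of 7658) in striatum. Between the regions, 1 of the 4 did not overlap in NT and 2 in R6/2, where the shares of all genes tested were 16.1% and 21.1%. These counts follow from how the genes were chosen. In the samples with 2 count sets, the Kcnip2 CPM of the 2 sets differed by a factor of 1.07 to 1.53, those of Kcnip3 by 1.19 to 1.41, those of Kcnip4 by 1.14 to 2.40 and those of Kcnip1 by 1.13 to 2.58.

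Marker genes of several cell types had lower summed levels or lower single genes in R6/2. In the striatum the 9 markers of striatal projection neurons summed to 1893 to 3272 CPM in R6/2 against 10097 to 13855 CPM in NT, and 7 of the 9 were lower by edgeR's quasi-likelihood test (adjusted p under 0.05), as were 2 of the 3 tested in cortex. Markers listed for interneurons summed to 1023 to 1247 CPM in striatum NT and 670 to 770 CPM in striatum R6/2. There all of the 6 tested stayed above an edgeR adjusted p of 0.05, and 5 of the 6 had an unadjusted p under 0.05. In cortex they summed to 639 to 836 CPM in NT and 359 to 403 CPM in R6/2, where 3 of 6 were lower. The list holds the GABAergic markers Gad1 and Gad2, which averaged 571 and 188 CPM in striatum NT. The paper describes the medium spiny neurons of the striatum as GABAergic, so both genes are not particular to interneurons there. In the cortex the sums of astrocyte markers (695 to 1013.5 CPM in NT and 518 to 599 CPM in R6/2) and of cortical excitatory neuron markers (141 to 155 and 101.4 to 137 CPM) also did not overlap between genotypes. None of the 5 and 2 genes tested passed the threshold, and 4 astrocyte markers had an unadjusted p under 0.05 in edgeR. In striatum 1 of 5 oligodendrocyte markers, Mobp, was lower (log2 fold change −0.77 ± 0.17 SE, edgeR adjusted p = 0.024), while the sums of that list overlapped (11798 to 27156 and 11061 to 16506 CPM). In these bulk samples fewer cells of a type and less RNA per cell cannot be told apart, and the part of either in the KChIP levels was not tested. Without striatum NT 3, the library with the choroid plexus markers, the striatal log2 fold changes were −1.67 for Kcnip2, −1.07 for Kcnip3 and −0.30 for Kcnip4.

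The isoforms were compared over complete reads, those that span a known isoform (Known), a new combination of known splice sites (NIC) or at least 1 new splice site (NNC). Kcnip2 reads fell mostly on ENSMUST00000162528, the isoform with both cassette exons printed above. It took 130 of 163, 364 of 436, 59 of 79 and 15 of 17 complete Kcnip2 reads in striatum NT 1 to 4. In striatum R6/2 1 to 4 it took 21 of 40, 38 of 65, 44 of 72 and 11 of 11. The R6/2 samples 1 to 3 were all below the NT samples, and R6/2 4, with 11 complete reads, was above them. The mean share was 81.5 ± 5.74% in NT and 68.0 ± 21.6% in R6/2 (SD, n = 4).

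The isoform without the 54-nt exon, ENSMUST00000079431, showed the opposite order. Its share in striatum NT was 2.45% (95% Wilson interval 0.958 to 6.14), 2.29% (1.25 to 4.17), 5.06% (1.99 to 12.3) and 5.88% (1.05 to 27.0). In striatum R6/2 it was 22.5% (12.3 to 37.5), 18.5% (10.9 to 29.6), 20.8% (13.1 to 31.6) and, in sample 4, 0 of 11 reads, which allows a share of up to 27.3%. Samples 1 to 3 of R6/2 lay above all 4 NT samples, and sample 4 made the groups overlap. The mean share was 3.92 ± 1.82% in NT and 15.4 ± 10.4% in R6/2 (SD, n = 4), a difference of 11.5 percentage points that ranged from 9.17 to 16.7 when each sample was left out. The intervals and the limit cover counting error only, since PCR copies of a molecule cannot be told from other molecules here.

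As a level in CPM, the isoform with both exons was at 153 ± 94.9 in striatum NT and 35.1 ± 8.48 in striatum R6/2 (SD, n = 4), and its genotypes did not overlap. The isoform without the 54-nt exon was at 6 ± 1.35 and 10.2 ± 6.90 CPM, and rested on 1 to 10 reads per NT sample and 0 to 15 per R6/2 sample. In the samples with 2 count sets, each set gave the same order. The isoform took 2 of 76 and 2 of 87 complete reads in the sets of NT 1, 4 of 229 and 6 of 207 in those of NT 2, 5 of 22 and 7 of 43 in those of R6/2 2, and 8 of 37 and 7 of 35 in those of R6/2 3. The isoform without both exons, ENSMUST00000161886, was at 3.68 ± 2.52% of complete reads in striatum NT and 8.08 ± 5.86% in striatum R6/2, and the groups overlapped, with 0 reads in sample 4 of each.

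In the cortex Kcnip2 had few complete reads, 49 in NT and 34 in R6/2 over 4 samples, and cortex NT 3 had none. ENSMUST00000079431 was on 3 of the 49 and 6 of the 34, that is on 1 read in each of 3 NT samples and on 1 or 2 reads in each R6/2 sample. Its mean share was 6.58 ± 2.25% in NT (SD, n = 3) and 22.6 ± 12.4% in R6/2 (SD, n = 4). The shares did not overlap between these 3 and 4 samples, but a single read sets most of them. The NT samples had 11, 17 and 21 complete reads and the R6/2 samples 5, 5, 19 and 5. A single read is therefore a larger share in the R6/2 samples with 5 reads than in any NT sample. 1 NIC isoform of Kcnip2 with 10 exons (TALONT000463570) reached 5% of complete reads in a group, with 3 of 49 in cortex NT, 0 of 34 in cortex R6/2, 8 of 695 in striatum NT and 1 of 188 in striatum R6/2.

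**Figure D2:**
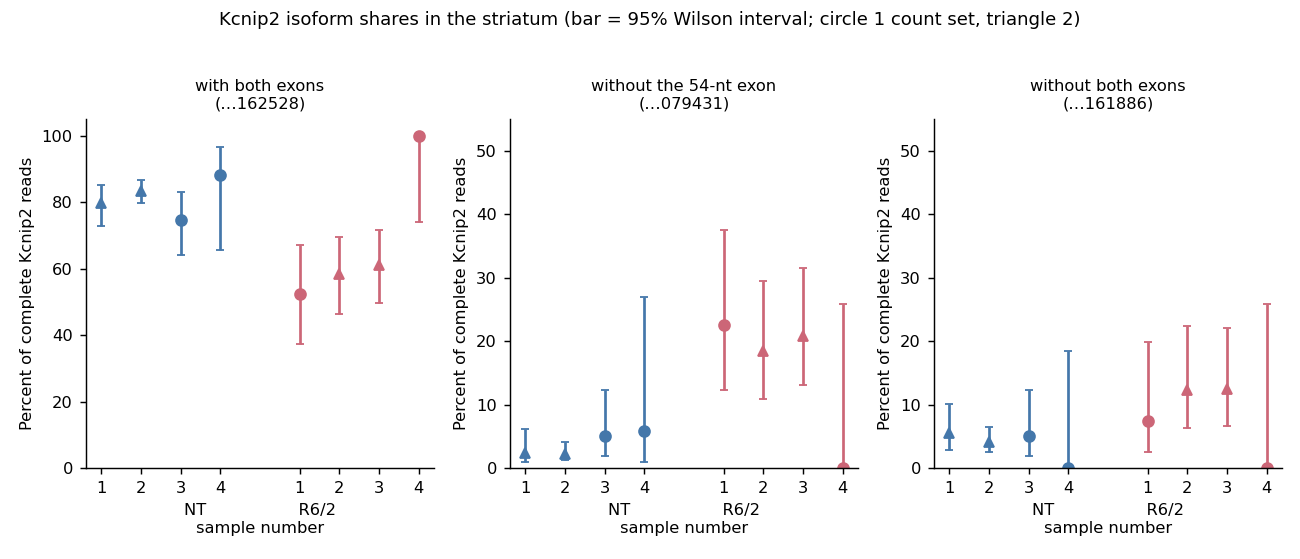
Share of complete Kcnip2 reads (percent, linear axes that differ in range between panels) on 3 isoforms in each striatum sample, by sample number, with 95% Wilson intervals; circles are samples with 1 count set and triangles those with 2. The isoform without the 54-nt exon is at 18.5 to 22.5% in R6/2 samples 1 to 3, above the NT samples, and at 0 of 11 reads in R6/2 sample 4.

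Kcnip3 was read as 2 known isoforms that differ by the 4-nt acceptor. In the striatum ENSMUST00000103215 took 150 of 200 complete reads in NT and 72 of 92 in R6/2, and ENSMUST00000028850 took 43 and 18. In the cortex the former took 54 of 68 and 45 of 63, and the latter 10 and 13. The mean share of ENSMUST00000028850 was 17.8 ± 13.4% in striatum NT, 15.5 ± 10.5% in striatum R6/2, 15.5 ± 5.54% in cortex NT and 19.8 ± 8.39% in cortex R6/2 (SD, n = 4). These differences between groups were smaller than the spread within them, and both isoforms were present in each group while the gene level was lower in R6/2.

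Kcnip1 reads divided over the isoforms with and without the 33-nt exon. In the striatum ENSMUST00000109340, with the exon, took 31 of 60 complete reads in NT and 15 of 27 in R6/2, and ENSMUST00000065970, without it, took 23 and 9. In the cortex the isoform with the exon took 2 of 11 reads in NT and 3 of 12 in R6/2, and the one without it 8 in each genotype. With 0 to 6 complete Kcnip1 reads per cortex sample, the share with the exon ranged from 0 to 40% in the 3 cortex NT samples with reads and from 25 to 60% in striatum NT, so the regions overlapped.

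Over all isoforms with at least 10 complete reads in a region, from genes with 2 or more such isoforms and a complete read in every sample, 5.96% (758 of 12723) had shares that did not overlap between genotypes in striatum and 5.94% (488 of 8215) in cortex. Of the KChIP isoforms that met this rule, 0 of 6 in striatum and 0 of 2 in cortex did not overlap. Kcnip2 in cortex and Kcnip1 and Kcnip4 in both regions did not meet it. In each case at least 1 sample had no complete read, and in cortex each of these genes also had fewer than 2 isoforms with 10 reads.

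Most Kcnip4 reads did not match a spliced isoform. Of its 2138 reads in all samples, 1678 (78.5%) were in the genomic class, reads within the gene that match no isoform's splicing, on 309 isoforms of which none had more than 82 reads. Another 410 reads were incomplete matches (ISM), and only 50 were complete. The 1 known isoform read, ENSMUST00000166924, had 19 reads, of which 3 were in cortex NT, 1 in cortex R6/2, 9 in striatum NT and 6 in striatum R6/2. Of the ISM reads, 337 were on 1 isoform of 8 exons and 53 on 1 of 7 exons and 1997 nt, both suffixes that start inside the gene. The latter length equals that of the last 7 exons of the annotated transcript ENSMUST00000087395, so these 53 reads do not show which first exon was used. The isoform of 8 exons was 3498 nt long, against 2099 nt for the last 8 exons of that transcript. Which annotated transcript it belongs to was not tested.

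The genomic share of Kcnip4 ranged from 64.0% to 92.0% over the 16 samples, and by group it was 74.7% in cortex NT, 78.1% in cortex R6/2, 82.0% in striatum NT and 78.8% in striatum R6/2. Among 9653 genes with at least 100 reads of these classes, the median genomic share was 6.69%, and 96.9% of the genes were below Kcnip4. The median was 69.1% in the 201 genes of 500000 bp or more and 6.42% in the 9437 shorter ones. Kcnip1, Kcnip2 and Kcnip3 had genomic shares of 22.2%, 17.6% and 22.7%. For Kcnip2 the share was 45.5% in cortex NT and 43.8% in cortex R6/2, against 13.5% and 14.5% in striatum NT and R6/2. For Kcnip1 it was 42.4% and 41.4% in cortex NT and R6/2, against 13.0% and 6.25% in striatum. The levels above therefore leave out a larger part of the cortex reads of these genes. The comparisons of the regions were not repeated with the genomic class. For Kcnip2, 211 of its 228 genomic reads were on 1 single-exon isoform of 1325 nt. With the genomic class counted, the striatal log2 fold changes were −1.74 for Kcnip2, −1.19 for Kcnip3 and −0.47 for Kcnip4.

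**Figure D3:**
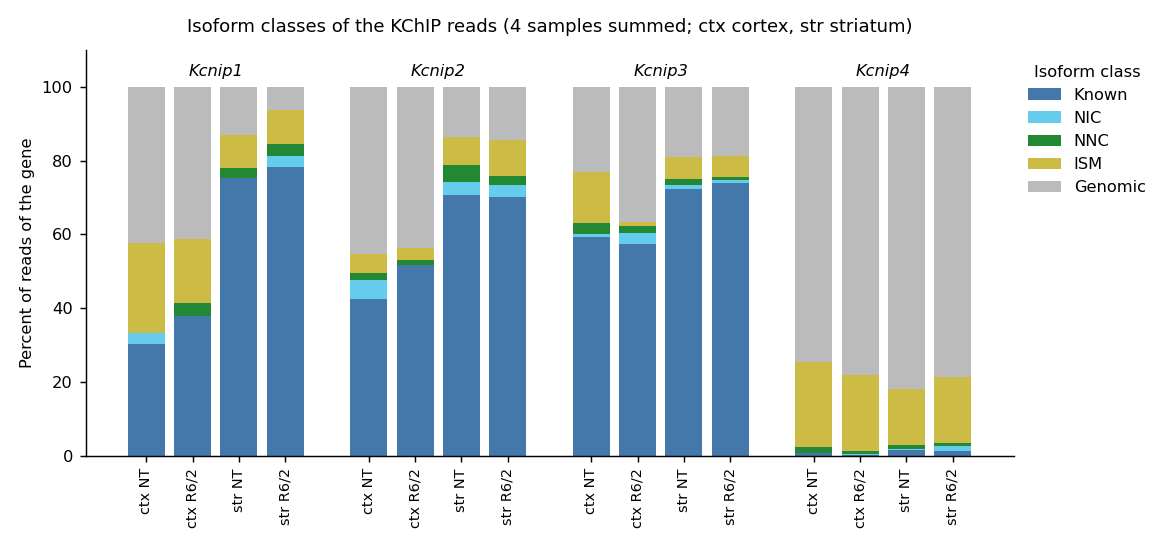
Percent of all reads of each KChIP gene in each isoform class (known, NIC, NNC, ISM and genomic), with the 4 samples of a group summed. Genomic reads make up 74.7 to 82.0% of Kcnip4 reads, 18.9 to 36.6% of Kcnip3 reads, 13.5 to 45.5% of Kcnip2 reads and 6.25 to 42.4% of Kcnip1 reads.

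The partners of the KChIPs were followed with a list of 23 genes in the roles of Kv4 pores, other auxiliary subunits, related EF-hand calcium sensors, and partners and targets of DREAM. The list was chosen with earlier results of these data known. Its counts and medians beside those of all genes are therefore a description and not an independent test. Across all genes tested by edgeR's quasi-likelihood test with Benjamini-Hochberg adjustment, 2.76% were lower and 0.457% higher in R6/2 cortex, and 3.84% were lower and 0.496% higher in R6/2 striatum. Of the 14 list genes tested in cortex, 1 was lower, 0 were higher and 13 did not pass, with a median log2 fold change of −0.44 against 0.017 over all genes. Of the 16 tested in striatum, 4 were lower, 0 were higher and 12 did not pass, with a median of −0.23 against −0.0020 over all genes. DESeq2 called the same genes in both regions and 0 higher, and no list gene was higher at an unadjusted p under 0.05 in edgeR.

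Hpca encodes hippocalcin, a neuronal calcium sensor of the same EF-hand family. It was lower in R6/2 in both regions, at 754 ± 194 CPM in cortex NT and 394 ± 63.2 CPM in cortex R6/2 (log2 fold change −0.93 ± 0.21 SE, edgeR adjusted p = 0.017). In the striatum it was at 5480 ± 685 CPM in NT and 1996 ± 508 CPM in R6/2 (−1.48 ± 0.18 SE, edgeR adjusted p = 0.00062). The striatal call held when any 1 sample was left out, whereas the cortical call was lost without NT 2, NT 4, R6/2 1, R6/2 2 or R6/2 4. Its relative Hpcal1, hippocalcin-like 1, was lower in striatum R6/2 (−0.95 ± 0.20 SE, edgeR adjusted p = 0.016) and was at −0.69 ± 0.19 in cortex (edgeR adjusted p = 0.051). The other calcium sensors tested, Ncs1, Hpcal4, Ncald and Vsnl1, did not pass in either region.

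Kcnab1, a cytoplasmic beta subunit of Kv1 channels, was lower in striatum R6/2, at 363 ± 137 CPM in NT and 196 ± 59.8 CPM in R6/2 (−0.91 ± 0.18 SE, edgeR adjusted p = 0.012). Pdyn, the prodynorphin gene and the textbook target of DREAM, was lower in striatum R6/2, at 143 ± 59.1 and 62.9 ± 21.1 CPM (−1.19 ± 0.21 SE, edgeR adjusted p = 0.0066). Kcnip3, whose product DREAM is a repressor, was also lower in the same samples, and a link between them was not tested. The other listed targets of DREAM, Fos, Bdnf and Slc8a3, did not pass the filter on low counts in striatum. Pdyn is also made by striatal projection neurons, of whose 9 markers 7 were lower as given above. The 2 that did not pass were Drd1 (−0.37 ± 0.50 SE) and Tac1 (−0.22 ± 0.19). Kcnab1 was not called without NT 3, R6/2 2, R6/2 3 or R6/2 4, and Hpcal1 not without NT 3, R6/2 3 or R6/2 4. Without a term for the number of count sets, 1 list gene (Hpca) was called in striatum. Within samples of 1 count set Hpca alone was called, and within samples of 2 no list gene was, with 2 samples per genotype in each.

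The Kv4 pore genes were near the limit of detection. Kcnd1 averaged 1.64 to 4.77 CPM over the 4 groups, Kcnd2 3.51 to 12.3 CPM and Kcnd3 0 to 2.29 CPM, and none of the 3 passed the filter in either region. With the genomic class counted, Kcnd2 passed it in striatum and was lower in R6/2 by edgeR's quasi-likelihood test at an adjusted p under 0.05. Kcnd2, the main dendritic Kv4 pore of these neurons, had its highest mean in striatum NT (12.3 ± 9.60 CPM) and was at 4.92 ± 3.70 CPM in striatum R6/2. The genotypes overlapped, at 3.78 to 24.3 CPM in striatum NT and 2.36 to 10.4 CPM in striatum R6/2. The unfiltered fit without the genomic class gave a log2 fold change of −0.67 ± 0.51 (SE). Kcnd3 had 0 reads in striatum R6/2. Dpp6 and Dpp10, which encode the single-pass auxiliary subunits that speed Kv4 gating, did not pass in either region. Dpp6 had log2 fold changes of 0.06 ± 0.26 (SE) in cortex and 0.07 ± 0.23 in striatum, and Dpp10 of −0.70 ± 0.29 and 0.43 ± 0.34. The difference in the R6/2 effect between striatum and cortex was called for 0 of the 16 list genes tested by edgeR and for 0 by DESeq2, with 1 of the 16 (Dpp10) at an unadjusted p under 0.05 in edgeR.

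**Figure D4:**
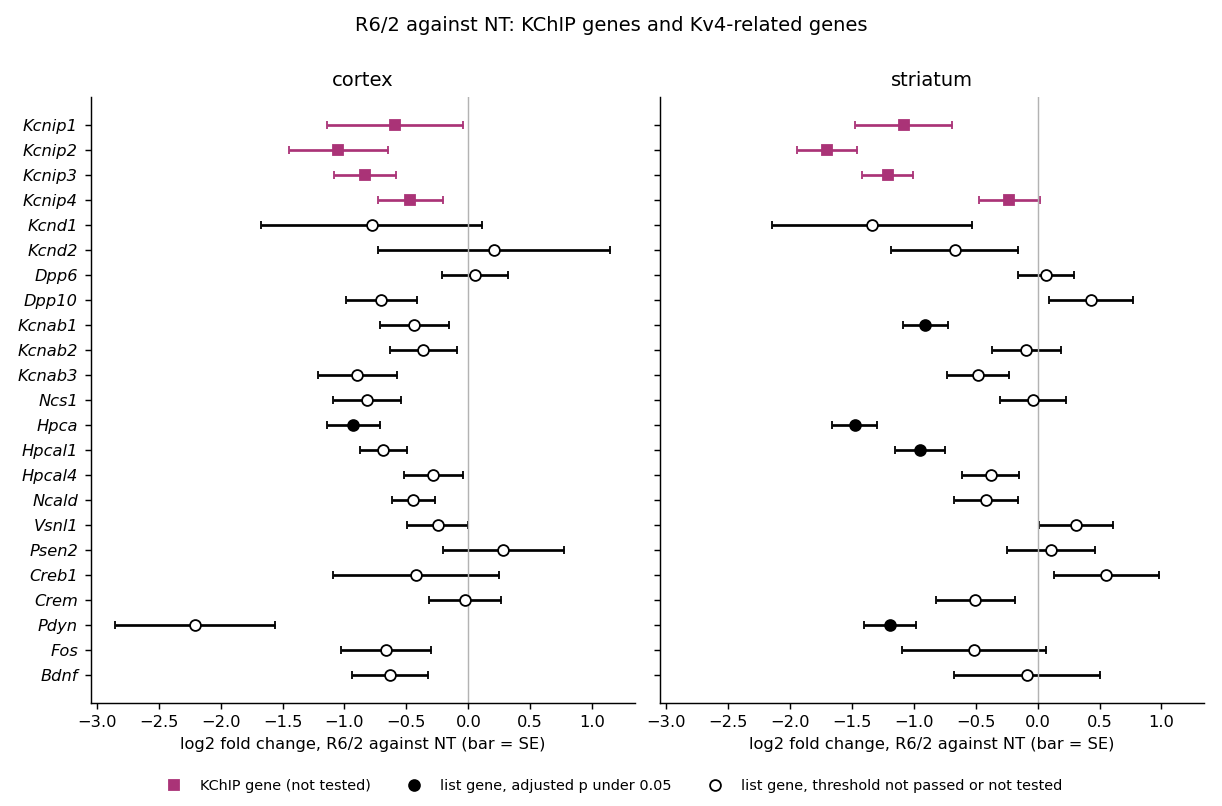
Log2 fold change of R6/2 against NT with its SE in cortex and striatum for the 4 KChIP genes (squares, not tested) and 19 genes of the list; filled circles passed an edgeR adjusted p of 0.05, open circles did not pass or were below the filter. Kcnd3, Rcvrn and Slc8a3, with an SE of 1 or more or none in a region, are not drawn, and the filled circles, Hpca in cortex and Kcnab1, Hpca, Hpcal1 and Pdyn in striatum, all lie below 0.

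Between the regions in NT, 5.87% of all genes tested were higher and 3.57% lower in striatum by the same test. Of the 15 list genes tested, 4 were higher, Kcnab1, Hpca and Pdyn among them, and 3 were lower (Dpp10, Ncald and Bdnf). With striatum samples of 1 count set only, 3 were higher (Kcnab1, Hpca and Pdyn). Dpp10 was at 15.8 ± 7.96 CPM in striatum NT and 57.9 ± 21.5 CPM in cortex NT (SD, n = 4). Hpca had a striatum to cortex log2 fold change of 2.99 ± 0.29 (SE, edgeR adjusted p = 0.00025), beside 2.79 ± 0.44 for Kcnip2 in the same fit.

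The genes whose levels over the 16 samples were most like each KChIP gene were found by the root-mean-square difference of centred log2 CPM among genes of at least 20 CPM. For Kcnip2 they were Necab2 (0.36), Ngef (0.44) and Hpca (0.45), where Kcnip2 itself varied with an SD of 1.36 on that scale. Necab2, another neuronal EF-hand calcium-binding protein, averaged 432 CPM in striatum NT, 160 CPM in striatum R6/2, 62.2 CPM in cortex NT and 29.3 CPM in cortex R6/2. For Kcnip3 they were Fstl4 (0.24), Tmem44 (0.26) and Chn1 (0.28), and for Kcnip4 Ywhah (0.28), Kcnv1 (0.30) and Dok5 (0.31). Chn1 averaged 1287 and 688 CPM in cortex NT and R6/2 and 1276 and 494 CPM in striatum NT and R6/2, while Kcnv1, a silent Kv channel subunit, was at 111, 69.4, 45.7 and 32.2 CPM. For Kcnip1, whose own SD was 0.71, they were Atg4d (0.43), 5031439G07Rik (0.45) and Fbxw5 (0.46). These likenesses are a description over samples that share region, genotype and library depth.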

How the data were processed

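RNA from the cortex and striatum of R6/2 and NT mice was sequenced as full-length cDNA on a PacBio Sequel II. The authors aligned the reads to mm10 with minimap2 2.17-r941, used TranscriptClean for read correction and TALON 5 for isoform assignment, and deposited unfiltered read counts per isoform, in 20 tables for 16 samples. In 4 striatum samples, 2 tables were summed, and the labels call these replicates without saying whether they are runs or libraries. Gene counts summed the known, ISM, NIC and NNC isoforms and left out the genomic class. Cortex and striatum were each fitted with edgeR 4.0.16 (R 4.3.3; TMM, filterByExpr, quasi-likelihood test, Benjamini-Hochberg adjusted p under 0.05), the striatum with a term for 1 or 2 count sets. The regions were compared in the 8 NT samples, and for the KChIP genes in a fit of all 16. DESeq2 1.42.0 was an alternative. The genotype fits of each region were tested on simulated counts, which held no effect of the number of count sets.

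The KChIP genes, the list of 23 genes and the marker lists were chosen with earlier results of these data known, so the KChIP genes have no p-value. Named were each list gene past the threshold between genotypes, Kcnd1, Kcnd2, Kcnd3, Dpp6 and Dpp10 in any case, the KChIP isoforms with at least 10 reads and 5% of complete reads in a group, and the 3 genes most like each KChIP gene. Other genes were named after their values were seen, and 1 list gene is counted but not reported here. Intervals are 95% Wilson intervals, and a count of 0 was bounded at 3 counts. Exon positions and sequences come from GENCODE M21. Replicate numbers were not treated as pairs.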

Additional observations from a re-analysis of the deposited data

Results flagged for a closer look

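Among 35 groups of 4 samples examined, 3 held a sample far from the other 3 (by Dixon's test of the gap over the range, at 95%), where chance gives about 1 group in 20. Kcnip1 had 0 CPM in cortex R6/2 sample 2, against 9.22 to 11 CPM in the other R6/2 cortex samples, which had 4 to 7 reads each. The Kcnip2 isoform without both cassette exons, ENSMUST00000161886, was at 10.5% of complete reads in cortex R6/2 sample 3 (2 of 19 reads) and had 0 reads in the other 3. The Kcnip3 isoform ENSMUST00000103215 was at 70.8% of complete reads in cortex NT sample 2 (17 of 24 reads), the lowest of its group.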

How the results depend on the processing

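The count of list genes lower in R6/2 cortex was 1 and became 2 with a replicate block and 2 with no filter on low counts, and 0 to 3 when a sample was left out. In striatum it was 4 and became 1 without a term for count sets, 2 with the first count set only, 5 with the genomic class, and 2 to 4 when a sample was left out. With 2 samples per genotype it was 1 (Hpca) within samples of 1 count set and 0 within samples of 2. Without that term 39 genes of all were lower and 0 higher in striatum, against 294 and 38. Between NT and R6/2 samples of the same number, deviations from the group means correlated at −0.085 to 0.18 in cortex and −0.57 to 0.66 in striatum. In striatum numbers 2 and 4, alike in count sets, were at 0.42 and 0.66, and numbers 1 and 3 at −0.57 and −0.41. Between cortex and striatum samples of the same number, correlations were −0.24 to 0.25 in NT and −0.046 to 0.41 in R6/2. Numbers 2 and 3 in NT and 1, 2 and 3 in R6/2 matched best with their own number there. With the replicate block 178 genes were lower and 7 higher in striatum, where 3 list genes were called. The list genes lower in striatum than in cortex, NT, were 3, and 5 with striatum samples of 1 count set only. The median gene of that region comparison was at 0.12 (log2) with TMM and at −0.01 with upper-quartile normalization. The 5 calls between genotypes, on 4 list genes, kept their direction in the 78 refits tabulated for them, which do not include the fits within samples of 1 or of 2 count sets.

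For Kcnip3 in cortex the R6/2 difference was −0.56 without ISM isoforms and −0.56 with the genomic class. For Kcnip4 in striatum it was 0.20 with the first count set only. The striatum minus cortex difference of Kcnip3 was 0.022 in NT with striatum samples of 1 count set, and in R6/2 it was −0.68 with those samples, −0.15 without ISM isoforms and −0.13 to 0.26 when a sample was left out. That of Kcnip4 in R6/2 was −1.56 with samples of 1 count set. In percentage points, the R6/2 difference in the share of ENSMUST00000162528 (Kcnip2) in cortex was −6.71, and −15.9 with known isoforms only and 11.3 with ISM reads in the denominator. That of ENSMUST00000028850 (Kcnip3) in striatum was −2.27, and 1.08 in samples of 2 count sets and −8.19 to 2.89 when a sample was left out. That of ENSMUST00000109340 (Kcnip1) in striatum was 10.8, and −1.52 with ISM reads in the denominator, 24.0 with the first count set only and 22.5 in samples of 1 count set. With ISM reads in the denominator, cortex NT 3 (0 complete and 2 ISM Kcnip2 reads) entered the Kcnip2 mean with a share of 0. Striatum R6/2 4 (0 complete and 1 ISM Kcnip1 read) likewise entered the Kcnip1 mean with a share of 0. Neither sample has a share over complete reads alone. The cause of the other shifts was not tested. Kcnip1 fell below the filter in most alternatives, and grouping ISM reads by first exon was not run. Depth limits the isoform shares in cortex, where a sample held 0 to 21 complete Kcnip2 reads.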
